A study of Mus musculus with 9 samples.

Results

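Vegfa, Angpt1, Angpt2, Kdr, Flt1, Tek, Nrp1 and Tie1, the genes of vascular endothelial growth factor (VEGF) and angiopoietin signalling, were described in single-cell RNA libraries of mouse kidney. They were taken by name and were 8 of the 32427 genes listed in the 9 matrices. Each library came from one kidney sample of one mouse, with 3 mice in each of 3 groups. All were male C57BL/6 mice, 6 weeks old at the start of housing, and the labels name no altered allele. Control mice received saline. AKI-CKD mice, the model of acute kidney injury passing into chronic kidney disease, received 8 mg/kg cisplatin by intraperitoneal injection every week for 4 weeks, and kidneys were taken at 8 weeks. AKI-CKD + EGT mice (EGT mice below) received the same cisplatin and 0.5 mg/mL ergothioneine (EGT), a sulfur-containing antioxidant amino acid of the diet, in drinking water from 3 days before the first injection to the end. The injections reach every organ, so no group isolates the vessels.

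VEGF-A is the main growth and survival factor of kidney endothelium, and podocytes and tubule cells are known to make it. It binds the tyrosine kinase receptors VEGFR2 (Kdr), which carries most of the growth signal, and VEGFR1 (Flt1), which binds VEGF-A tightly and can act as a decoy. Nrp1 is a co-receptor that brings VEGF-A to VEGFR2. Angiopoietin-1 (Angpt1) activates the receptor TIE2 (Tek) and keeps vessels quiet, while angiopoietin-2 (Angpt2) mostly opposes it. Tie1 binds no angiopoietin on its own and modifies signalling by TIE2.

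Of 216680 barcodes, 196925 cells passed the filters, and 157641 of them could be assigned to 13 cell types by marker genes. The matrices held 70106161 to 101525691 UMIs (unique molecular identifiers, which count RNA molecules). The names covered 134463 proximal tubule (PT) cells but 2694 endothelial cells, 507 thin limb cells and 233 podocytes, with 10 to 77 podocytes in a mouse. The cell names in the files were running numbers rather than barcode sequences, so cells shared between libraries could not be counted. The 8 genes were left out of the marker lists and of the variable genes used for clustering. Cells were named by these markers, so their levels describe the names and do not test them. The 12 endothelial markers summed to 10810 CPM (counts for each 1000000 UMIs, here over the cells of a type from all 9 mice together) in endothelial cells and 1580 in podocytes, and the 10 podocyte markers to 14061 CPM in podocytes and 1593 in endothelial cells. PT markers were present in every type, at 36792 CPM in endothelial cells and 63562 CPM in podocytes, and free RNA and mixed cells cannot be told apart in these sums. Unless pooled mice are named, values below are CPM of the UMIs summed per mouse and cell type, with the mean ± SD over mice, and levels are compared between cell types for one gene at a time.

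The 5 receptor and co-receptor genes were highest in endothelial cells, and the promoters of the 4 with most of their UMIs in endothelial cells are shown to put regulatory sequence beside their values. RefSeq (GRCm38.p6, whereas the libraries were processed on GRCm39) gave a promoter for 6 of the 8 genes. Each sequence below runs 5′ to 3′ on the gene's strand, from 250 bases before to 50 bases after the annotated start, and capitals mark GGAA on either strand (GGAA or TTCC), the core bound by ETS factors, a family that includes the endothelial regulator ERG.
Kdr, chr5:75978406-75978705, minus strand: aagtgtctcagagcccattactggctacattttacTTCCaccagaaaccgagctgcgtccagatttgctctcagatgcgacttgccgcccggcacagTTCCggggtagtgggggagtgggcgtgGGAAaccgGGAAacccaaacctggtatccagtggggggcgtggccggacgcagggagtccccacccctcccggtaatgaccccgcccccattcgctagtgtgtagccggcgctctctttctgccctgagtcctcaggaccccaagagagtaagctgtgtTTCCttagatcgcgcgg
Flt1, chr5:147725962-147726261, minus strand: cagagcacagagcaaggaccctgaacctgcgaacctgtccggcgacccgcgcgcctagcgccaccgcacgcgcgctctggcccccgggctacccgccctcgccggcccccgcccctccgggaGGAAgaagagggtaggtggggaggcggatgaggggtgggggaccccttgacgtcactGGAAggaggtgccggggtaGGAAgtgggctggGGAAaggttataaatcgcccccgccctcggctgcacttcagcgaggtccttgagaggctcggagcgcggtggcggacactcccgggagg
Tek, chr4:94739039-94739338, plus strand: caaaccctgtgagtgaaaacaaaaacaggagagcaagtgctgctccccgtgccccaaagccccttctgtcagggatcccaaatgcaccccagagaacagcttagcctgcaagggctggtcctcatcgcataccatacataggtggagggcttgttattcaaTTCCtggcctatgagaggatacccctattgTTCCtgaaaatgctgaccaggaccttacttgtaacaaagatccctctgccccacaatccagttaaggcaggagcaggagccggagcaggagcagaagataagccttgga
Tie1, chr4:118489800-118490099, minus strand: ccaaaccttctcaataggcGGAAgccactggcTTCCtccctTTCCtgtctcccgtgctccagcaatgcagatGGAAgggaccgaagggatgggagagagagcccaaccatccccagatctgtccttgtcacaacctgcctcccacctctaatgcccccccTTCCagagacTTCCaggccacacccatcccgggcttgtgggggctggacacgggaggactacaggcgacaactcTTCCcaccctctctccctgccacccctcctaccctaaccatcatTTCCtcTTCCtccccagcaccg
The core occurred 5 times in Kdr, 4 times in Flt1, 2 times in Tek and 9 times in Tie1. Of all 32851 promoters of this length, 96.0% held it at least once, with a median of 3, so its presence in these windows was not particular to them. At least as many copies as in Tie1 were found in 1.59% of promoters, and at least as many as in Tek in 84.6%.

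Vegfa was highest in podocytes, the filter cells of the glomerulus. Its mean over 9 mice was 347 ± 294 CPM there, against 63.6 ± 12.4 CPM in principal cells of the collecting duct, the next type. Podocytes were higher in 9 of 9 mice (exact two-sided paired permutation test, p = 0.00391, adjusted p = 0.0469 over the 12 neighbouring pairs of types, where 0.00391 is the smallest p that 9 pairs allow). The level varied widely between mice and rested on 3 to 95 Vegfa UMIs in a mouse. In AKI-CKD replicate 3 a single podocyte with 68859 UMIs held 66.1% of the summed UMIs and 74 of the 95 Vegfa UMIs. Without that cell, left out after the values were seen, the mean was 312 ± 229 CPM, still above principal cells in 9 of 9 mice (exact paired permutation test, p = 0.00391). Principal, intercalated, loop of Henle (LOH), distal convoluted tubule (DCT) and PT cells followed at 48.5 to 63.6 CPM, and no further neighbouring pair in the order passed the test. PT cells, by their number, held 80.3% of all Vegfa UMIs. T cells read 30.6 ± 7.64 CPM, B cells 25.8 ± 15.4 CPM and macrophages 24.5 ± 10.1 CPM, and the parts of free RNA and of expression by these cells were not tested.

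After each cell was thinned to 1000 UMIs, 27.8% ± 17.5 of podocytes held a Vegfa UMI (mean over 9 mice), compared with 4.36% ± 0.796 of PT cells, 2.91% ± 1.46 of endothelial cells, 2.53% ± 1.09 of T cells, 2.20% ± 1.04 of macrophages and 0.962% ± 1.17 of B cells. Without thinning the shares were 43.9%, 15.6%, 8.41%, 7.92%, 6.55% and 6.41%. Median depths per mouse lay between 1429 and 2760 UMIs in podocytes and between 1585 and 2871 UMIs in B cells. At equal depth the mean podocyte and PT shares were above those of all 3 immune types, which was not tested, and the PT share lay closer to that of T cells than to that of B cells.

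Angpt1 was highest in principal cells, at 36.8 ± 8.36 CPM, and was higher there than in stromal cells (18.6 ± 9.23 CPM), the next type, in 9 of 9 mice (exact paired permutation test, p = 0.00391, adjusted p = 0.0469). The stromal cells were mixed. A cluster of 564 was led by Acta2, Myl9, Tagln and Rgs5, genes of the mural cells that are the usual source of angiopoietin-1, and one of 291 by C3, Dcn and Tagln, with the fibroblast marker Pdgfra raised. All other types read 3.48 to 12.8 CPM, with B cells at 10.1 ± 9.51 CPM, and none of these neighbours passed the test. In thinned cells 4.05% ± 1.44 of principal cells held an Angpt1 UMI, 1.20% ± 0.372 of PT cells, 1.02% ± 1.51 of B cells, 0.334% ± 0.801 of macrophages and 0.272% ± 0.559 of T cells. The mean PT share was close to that of B cells but above those of macrophages and T cells, while the principal cell share was above all 3. These shares were not tested against each other.

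Angpt2 had the narrowest pattern of the ligands. It was found in thin limb cells, the cells of the thin part of the loop of Henle, at 367 ± 205 CPM. Stromal cells, the next type, read 19.6 ± 7.90 CPM, endothelial cells 10.2 ± 12.4 CPM, and each of the remaining types at most 1.42 CPM. Thin limb cells were above stromal cells in 9 of 9 mice (exact paired permutation test, p = 0.00391, adjusted p = 0.0469). Podocytes had 0 Angpt2 UMIs in 8 of 9 mice, which allows up to 12.1 to 98.1 CPM in a mouse, so endothelial cells and podocytes could not be ordered at this depth. The step from stromal to endothelial cells missed the threshold after adjustment (p = 0.0195, adjusted p = 0.0781, exact paired permutation test).

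The 507 thin limb cells held 63.1% of all 1175 Angpt2 UMIs, and 24.0% ± 6.98 of them held an Angpt2 UMI after thinning, against 0.979% ± 1.27 of endothelial cells. B cells had 0 of 2142369 UMIs, which allows up to 1.40 CPM. Angpt2 was thus not found at a like level in all types. Angpt2 overlaps Mcph1 in the annotation and the strand used in counting is not given in the sources used here. Mcph1 read 38.3 ± 32.2 CPM in thin limb cells, where it was also highest, and reads of the overlap cannot be told apart.

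Kdr, Flt1, Tek and Tie1 were each highest in endothelial cells, and each was higher there than in the next type in 9 of 9 mice (exact paired permutation test, p = 0.00391 for each, adjusted p at most 0.0469). Kdr read 402 ± 102 CPM in endothelial cells and 9.32 ± 13.8 CPM in podocytes, the next type. Flt1 read 921 ± 161 CPM and then 36.6 ± 28.8 CPM in stromal cells. Tek read 139 ± 27.3 CPM and then 4.59 ± 5.34 CPM, again in stromal cells. Thin limb cells read 4.41 ± 6.97 CPM. The order below endothelial cells could not be settled at this depth for Kdr, with 0 UMIs in the podocytes of 5 of 9 mice, or for Tek, with 0 UMIs in 4 of 9 mice in stromal and 5 of 9 in thin limb cells.

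Tie1 read 323 ± 49.8 CPM in endothelial cells, 28.6 ± 27.6 CPM in stromal cells and at most 1.95 CPM in the other types. Thin limb cells, the next type, had 0 Tie1 UMIs in 7 of 9 mice, which allows up to 7.35 to 47.3 CPM in a mouse, so their order against stromal cells could not be settled at this depth. Endothelial markers summed to 1121 CPM in the stromal cells of all 9 mice together, and their part in the stromal Tie1 signal was not tested. Tek and Tie1 had 0 of 786301 UMIs in podocytes, which allows up to 3.82 CPM. Of the UMIs of Kdr, Flt1, Tek and Tie1, 74.3% to 80.6% lay in the named endothelial cells, which made up 1.37% of kept cells. Unnamed cells held 9.92% to 14.1%. One unnamed cluster of 805 cells raised 8 of the 12 PT markers but had Plvap, Emcn and Kdr among its 10 leading genes. Endothelial levels and shares leave these cells out, and their part in the unnamed UMIs was not tested.

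Nrp1 was broader. It read 630.1 ± 133 CPM in endothelial cells, 183 ± 64.9 CPM in stromal cells and 101 ± 67.1 CPM in podocytes, and every type had a level of at least 11.1 CPM. Endothelial cells were above stromal cells in 9 of 9 mice (exact paired permutation test, p = 0.00391, adjusted p = 0.0469), a step of 3.45-fold. The step from stromal cells to podocytes did not pass after adjustment (p = 0.0312, adjusted p = 0.125, exact paired permutation test). In AKI-CKD replicate 3 the podocyte with 68859 UMIs held 22 of the 24 Nrp1 UMIs. Podocytes of that mouse read 230 CPM of Nrp1 with this cell and 56.5 CPM without it, and the Nrp1 mean above includes it. PT cells, at 16.7 ± 1.81 CPM, held 47.7% of Nrp1 UMIs, more than the 28.2% in endothelial cells.

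**Figure D1:**
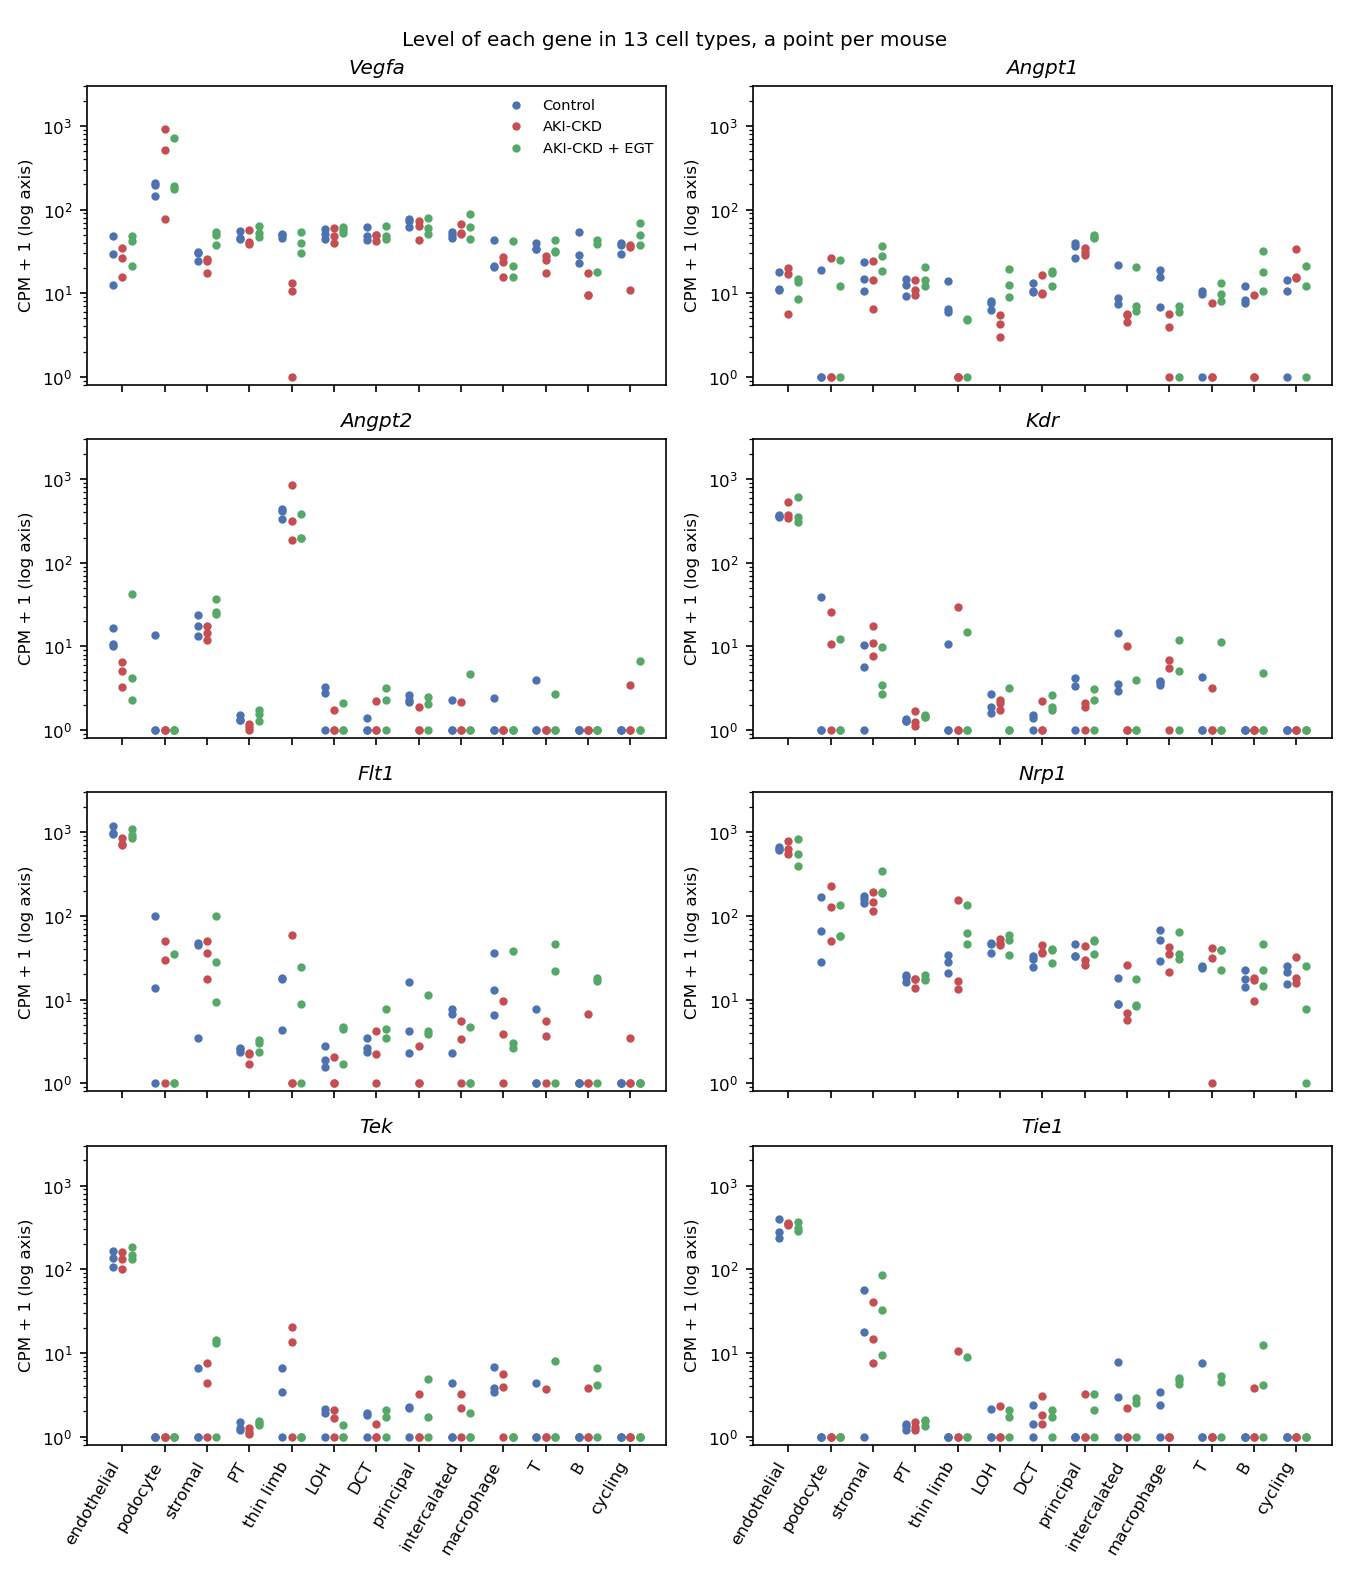
Each panel plots one gene, with the cell types on the horizontal axis and CPM + 1 on a logarithmic vertical axis; a point is one mouse, coloured by group, and points at 1 are mice without a UMI. Kdr, Flt1, Tek and Tie1 stand out in endothelial cells, Angpt2 in thin limb cells at 186 to 851 CPM, and Vegfa in podocytes at 76.8 to 911 CPM.

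Within the endothelium the receptors were not evenly spread. Subsets were named from markers: 287 glomerular cells, of the filtering capillaries, 578 peritubular cells, of the capillaries around the tubules, and 886 arterial and descending vasa recta cells. The other 943 endothelial cells stayed unnamed. Of the 886 cells, 380 formed a cluster that raised 7 of the 10 arterial markers but had 0 of them among its 10 leading genes, which held S100a4, a marker of the monocyte and dendritic list. A further cluster of 279 raised 8 of the 10 and also had 0 among its leading genes, which held Mgp, Gkn3 and Vwf. So 659 of the 886 cells rest on raised markers only. The other 227 had 2 markers of this subset, Cxcl12 and Slc14a1, among their leading genes, beside Aqp1. Whether these clusters differ in the type of vessel was not tested. Kdr was highest in glomerular cells at 1418 ± 465 CPM, with 839 ± 176 CPM in peritubular cells and 42.6 ± 10.4 CPM in arterial and descending vasa recta cells. The lowest, median and highest mouse were 969, 1325 and 2197 CPM in glomerular cells and 572, 769 and 1090.2 CPM in peritubular cells. Although these ranges overlapped, the glomerular level was the higher in 9 of 9 mice, and both exceeded the arterial level in 9 of 9 (exact paired permutation test, p = 0.00391 and adjusted p = 0.00488 over 15 tests for each pair).

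Nrp1 shared the order of Kdr, with 2137 ± 496 CPM in glomerular, 862 ± 208 CPM in peritubular and 283 ± 46.3 CPM in arterial and descending vasa recta cells. Each step held in 9 of 9 mice (adjusted p = 0.00488, exact paired permutation test). Flt1 had another order, with its highest level in peritubular cells at 2007 ± 356 CPM, then glomerular cells at 962 ± 203 CPM and arterial and descending vasa recta cells at 593 ± 78.3 CPM. These steps, too, held in 9 of 9 mice (adjusted p = 0.00488, exact paired permutation test). Kdr was thus 33.3-fold and Flt1 1.62-fold higher in glomerular than in arterial and descending vasa recta cells. In the cluster of 227 alone the level was 93.7 ± 43.5 CPM for Kdr and 754 ± 206 CPM for Flt1 (SD, n = 9). Against it the glomerular step of Flt1 was no longer called (higher in 6 of 9 mice, adjusted p = 0.0670, exact paired permutation test).

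Tek and Tie1 varied less between the subsets. Tek read 184 ± 64.3 CPM in glomerular, 214 ± 67.5 CPM in peritubular and 118 ± 24.7 CPM in arterial and descending vasa recta cells, and the first pair did not pass (higher in peritubular cells in 7 of 9 mice, adjusted p = 0.0879, exact paired permutation test). Both capillary subsets were above the arterial one (adjusted p = 0.0361 and 0.00488, exact paired permutation test), but without the cluster of 380 cells the glomerular step was no longer called (adjusted p = 0.129, exact paired permutation test). Tie1 read 465 ± 73.6 CPM in peritubular cells, above 299.7 ± 56.2 CPM in glomerular and 342 ± 82.7 CPM in arterial and descending vasa recta cells in 9 of 9 mice (adjusted p = 0.00488 for each, exact paired permutation test). Its glomerular and arterial levels were not separated (adjusted p = 0.203, exact paired permutation test), but with the cluster of 227 alone the glomerular level was the lower in 8 of 9 mice (adjusted p = 0.0107, exact paired permutation test). The other steps against arterial and descending vasa recta cells that passed did so without the cluster of 380 too (adjusted p at most 0.0146, exact paired permutation test), in 9 of 9 mice for Kdr, Flt1 and Nrp1 and in 8 of 9 for Tek and Tie1 in peritubular cells. Apart from the glomerular step of Flt1, the steps against this subset that passed did so with the cluster of 227 alone as well (adjusted p at most 0.0451, exact paired permutation test).

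The difference between the patterns was tested on the log2 ratio of the glomerular to the peritubular level of each mouse, which does not depend on gene length. This test was added after the levels were seen. The ratio of Kdr exceeded that of Flt1 by 1.79 ± 0.24 in log2 units (SD, n = 9), in 9 of 9 mice (exact paired permutation test, adjusted p = 0.00488 over 10 pairs of genes). Nrp1 exceeded Flt1 by 2.38 ± 0.14, also in 9 of 9 mice (adjusted p = 0.00488, exact paired permutation test). Kdr and Nrp1 were already higher in glomerular cells, and Flt1 in peritubular cells, in 9 of 9 mice. The direction and p of both differences were thus fixed by the levels above and add no further support. Tek and Tie1 were the one pair that missed the threshold (adjusted p = 0.0547, exact paired permutation test). By the levels above, glomerular capillaries of these mice carried relatively more Kdr and Nrp1, and peritubular capillaries relatively more Flt1 and Tie1.

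**Figure D2:**
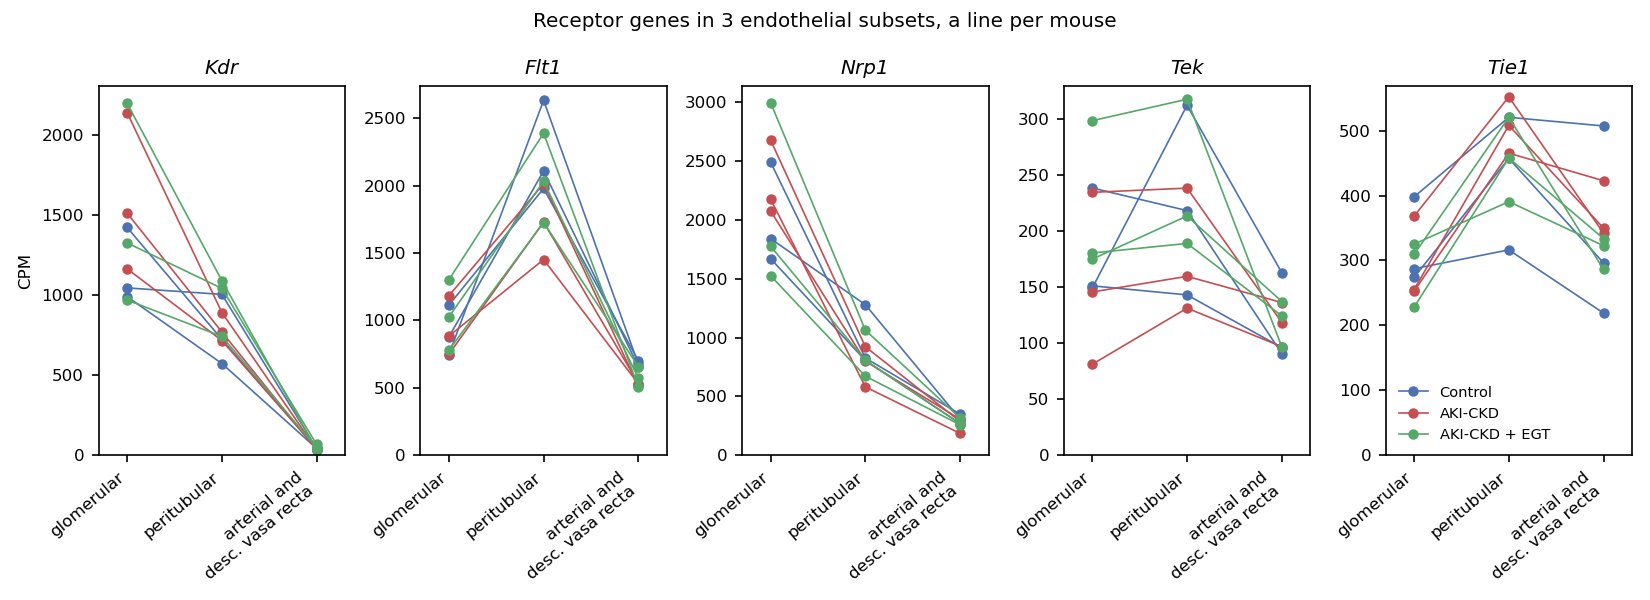
CPM of 5 genes (vertical axes, starting at 0) in 3 endothelial subsets (horizontal axis), with a line for each of the 9 mice, coloured by group. Lines of Kdr and Nrp1 fall from glomerular to peritubular cells in every mouse, whereas lines of Flt1 and Tie1 rise.

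The groups were used to ask whether these genes differed after cisplatin, and whether they differed between cisplatin with EGT and cisplatin alone. UMIs summed per mouse were tested with edgeR in 13 populations: all kept cells, endothelial cells, their glomerular and peritubular subsets, podocytes, stromal cells, macrophages and 6 tubule types. The cisplatin comparison set AKI-CKD against Control mice and the EGT comparison AKI-CKD + EGT against AKI-CKD mice. Both used the same AKI-CKD mice, so their values are not independent. Filters on low counts left 53 tests of these genes in each comparison, from 2 genes in podocytes and thin limb cells to all 8 in the sum of all kept cells. In the cisplatin comparison 0 of 53 were called at an adjusted p under 0.05, with a background of 0.016% of all genes tested over the 13 populations, and 3 of 53 (5.66%) had an unadjusted p under 0.05, against 9.5% of all tests. In the EGT comparison 0 of 53 were called (background 0.147%), and 5 of 53 (9.43%) had an unadjusted p under 0.05, against 12.8% of all tests. With DESeq2 the counts were 0 and 1. The filter on mitochondrial UMIs removed 27.7% of the barcodes of EGT replicate 3 and 17.0% of those of Control replicate 1, against 0.909% to 7.94% in the other 7 mice. With either of these mice left out 0 of these genes were called. A p that misses the threshold does not show that levels were the same, and few genes of any kind passed with 3 mice a group.

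Flt1 in endothelial cells gave the lowest unadjusted p of the receptors in the first comparison. It read 967, 985 and 1186 CPM in Control mice, 713, 846 and 718 CPM in AKI-CKD mice and 1109.5, 919 and 845 CPM in EGT mice. Every AKI-CKD mouse lay below every Control mouse, while the EGT mice reached from the top of the AKI-CKD range into the Control range. In endothelial cells 14.4% of genes with at least 50 UMIs also had Control and AKI-CKD mice that did not overlap. The log2 fold change was -0.41 (SE 0.17, adjusted p = 0.515) for the cisplatin comparison, with an unadjusted p of 0.0276 in edgeR, and 0.24 (SE 0.17, adjusted p = 0.708) for the EGT comparison. The latter was 0.14 without EGT replicate 1. PT markers in the same endothelial sums ranged from 37663 to 50571 CPM in Control and from 15939 to 46847 CPM in AKI-CKD. The stromal markers there lay without overlap, at 30.4 to 153 CPM in Control and 14.8 to 27.7 CPM in AKI-CKD, with 13.9 to 47.0 CPM in EGT mice. The part of either list in the Flt1 values was not tested. Arterial and descending vasa recta cells, the subset with the lowest Flt1, made up 0.313% to 0.371% of kept cells in Control and 0.402% to 0.777% in AKI-CKD mice. Peritubular cells, the subset with the highest, made up 0.116% to 0.342% in AKI-CKD and 0.365% to 0.465% in EGT mice. Neither pair of ranges overlapped (exact permutation test, p = 0.1 for each, the smallest that 3 mice against 3 allow). The peritubular share of Control mice, 0.231% to 0.310%, did overlap with that of AKI-CKD mice. So did the arterial and descending vasa recta share of EGT mice, 0.425% to 0.561%. These shares of kept cells also move with the share of all endothelial cells, 0.846% to 1.98% in AKI-CKD mice. They leave out the endothelial cells without a subset name, and the part of subset makeup in the Flt1 values was not tested.

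In peritubular cells the Flt1 values were 2109, 1979 and 2633 CPM in Control mice, 1730.0, 2014 and 1452 CPM in AKI-CKD mice and 2388, 2031 and 1726 CPM in EGT mice. In edgeR the log2 fold change of the cisplatin comparison was -0.40 (SE 0.22, adjusted p = 0.930) there and -0.04 (SE 0.30, adjusted p = 0.999) in glomerular cells. Whether the subsets differed in this change was not tested. None of these Flt1 changes was called.

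Kdr in endothelial cells read 355, 361 and 376 CPM in Control mice, 341, 539 and 374 CPM in AKI-CKD mice and 613, 352 and 309.5 CPM in EGT mice. One mouse in each treated group lay above all others, and the groups overlapped. With edgeR the log2 fold changes were 0.25 (SE 0.24, adjusted p = 0.780) and, for the EGT comparison, -0.09 (SE 0.24, adjusted p = 0.938). The first was 0.03 without AKI-CKD replicate 2 and 0.39 without AKI-CKD replicate 1, and the second 0.14 without AKI-CKD replicate 2 and -0.41 without EGT replicate 1. The high AKI-CKD mouse, replicate 2, also had the most glomerular endothelial cells, 82 against 13 to 39 in the other mice, the subset with the highest Kdr. EGT replicate 1, with the highest Kdr at 613 CPM, was among those other mice. The part of subset makeup in the Kdr values was not tested.

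Within glomerular cells alone that mouse read 2139.5 CPM of Kdr, beside 1164 and 1512 CPM in the other AKI-CKD mice, 990.3, 1422 and 1045 CPM in Control and 2197, 1325 and 969 CPM in AKI-CKD + EGT. The groups overlapped in this subset as well (log2 fold change 0.40 (SE 0.32, adjusted p = 0.999) for the cisplatin comparison in edgeR). It was 0.19 without AKI-CKD replicate 2 and 0.61 without AKI-CKD replicate 1.

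The co-receptor Nrp1 in endothelial cells read 613, 666 and 625 CPM in Control mice, 629.6, 796 and 555 CPM in AKI-CKD mice and 839, 393 and 553 CPM in EGT mice. Its groups overlapped, with edgeR log2 fold changes of 0.11 (SE 0.23, adjusted p = 0.913) and -0.25 (SE 0.23, adjusted p = 0.785). The first was -0.05 without AKI-CKD replicate 2 and 0.21 without AKI-CKD replicate 3, and the second -0.55 without EGT replicate 1 and -0.02 without EGT replicate 2. In DCT cells Nrp1 was 29.7, 32.2 and 23.6 CPM in Control mice, 35.3, 35.7 and 43.8 CPM in AKI-CKD mice and 38.0, 39.5 and 26.8 CPM in EGT mice. There the AKI-CKD mice lay above the Control mice, groups that did not overlap for 16.1% of DCT genes with at least 50 UMIs, and the log2 fold change of 0.52 (SE 0.21, adjusted p = 0.533) was not called in edgeR. Endothelial markers in the same DCT sums moved with it, at 66.8 to 99.4 CPM in Control, 126 to 156 CPM in AKI-CKD and 84.9 to 151 CPM in EGT mice, and their part was not tested.

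Tek, the angiopoietin receptor, in endothelial cells read 105, 136 and 163 CPM in Control mice, 99.3, 158 and 132 CPM in AKI-CKD mice and 184, 147 and 129.8 CPM in EGT mice. The spread within each group covered the distance between them, and the edgeR log2 fold changes were 0.01 (SE 0.21, adjusted p = 0.987) and 0.13 (SE 0.21, adjusted p = 0.886). Tie1 read 235, 279.6 and 397 CPM in Control mice, 334, 353 and 348 CPM in AKI-CKD mice and 364, 289 and 306 CPM in EGT mice. The AKI-CKD mice lay close together inside the Control range, and the log2 fold changes were 0.25 (SE 0.19, adjusted p = 0.731) and -0.21 (SE 0.19, adjusted p = 0.784). With 1 mouse left out the first ranged from 0.11, without Control replicate 1, to 0.45, without Control replicate 3, and the second from -0.28, without EGT replicate 1, to -0.13, without EGT replicate 2.

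In PT cells Tek was 0.259, 0.207 and 0.475 CPM in Control mice, 0.148, 0.270 and 0.0633 CPM in AKI-CKD mice and 0.386, 0.534 and 0.444 CPM in EGT mice, from 5 to 34 UMIs in a mouse. Every EGT mouse lay above every AKI-CKD mouse, as groups did not overlap for 24.8% of PT genes with at least 50 UMIs, while Control and AKI-CKD mice overlapped. In edgeR the log2 fold changes were -0.94 (SE 0.52, adjusted p = 0.507) and 1.34 (SE 0.53, adjusted p = 0.281), neither of them called. The first was -1.47 without AKI-CKD replicate 2 and -0.48 without Control replicate 3, and the second 1.87 without AKI-CKD replicate 2 and 0.95 without AKI-CKD replicate 3. Endothelial markers in the same PT sums were 10.7 to 22.5 CPM in AKI-CKD and 18.2 to 22.4 CPM in EGT mice, and the stromal markers there did not overlap between AKI-CKD and EGT mice. Their part in the Tek values was not tested.

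**Figure D3:**
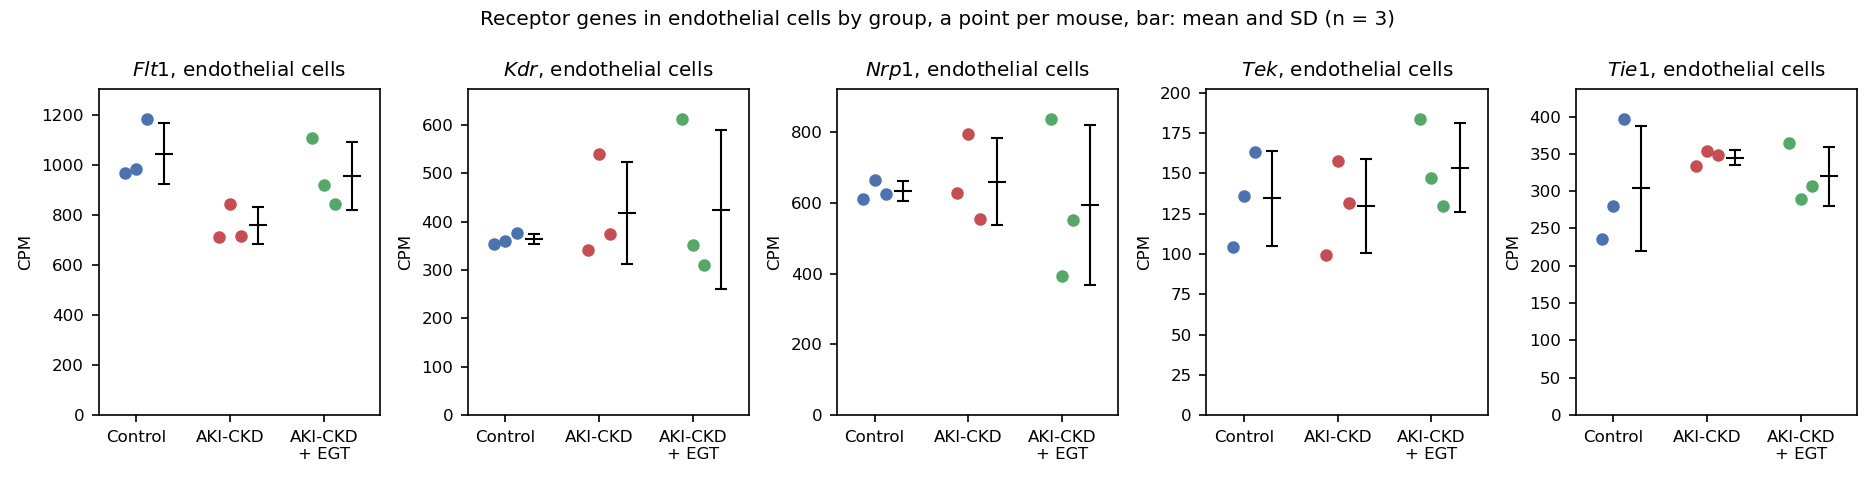
CPM of the receptor and co-receptor genes in endothelial cells (vertical axes, starting at 0) by group, with a point per mouse and the mean ± SD of 3 mice beside them. The 3 AKI-CKD mice lie below the 3 Control mice for Flt1, and the groups overlap for Kdr, Nrp1, Tek and Tie1.

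Vegfa in podocytes read 143, 204 and 196 CPM in Control mice, 76.8, 520.0 and 911 CPM in AKI-CKD mice and 707, 192 and 173 CPM in EGT mice. These came from 16, 16 and 6, 3, 21 and 95, and 32, 17 and 43 Vegfa UMIs in 31, 21 and 11, 10, 17 and 10, and 16, 40 and 77 podocytes. Without its largest cell AKI-CKD replicate 3 read 594 CPM. The Control mice lay together, whereas both cisplatin groups held mice far above and mice near or below them, so the spread within a group was larger than the distance between groups. The edgeR log2 fold changes were 1.46 (SE 0.71, adjusted p = 0.489) for the cisplatin comparison and -0.52 (SE 0.67, adjusted p = 0.781) for the EGT comparison. The first was 0.60 without AKI-CKD replicate 3 and 1.88 without AKI-CKD replicate 1. The second turned to 0.33 without AKI-CKD replicate 3 and was -1.03 without AKI-CKD replicate 1, and EGT replicates moved it between -1.34, without replicate 1, and -0.16, without replicate 3. In the same podocyte sums the podocyte markers ranged from 6762 to 17301 CPM in Control and from 12620 to 29683 CPM in AKI-CKD mice, and the PT markers from 72739 to 96416 and from 26882 to 76490 CPM. The stromal markers there were 242 to 392 CPM in Control, 556 to 867 CPM in AKI-CKD and 158 to 552 CPM in EGT mice, with AKI-CKD above both other groups. The part of these lists in the Vegfa values was not tested.

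In PT cells, where Vegfa UMIs were most numerous, the level was far steadier. It read 54.3, 43.0 and 45.1 CPM in Control mice, 40.1, 55.5 and 38.0 CPM in AKI-CKD mice and 51.5, 45.6 and 63.4 CPM in EGT mice, and the groups overlapped. Log2 fold changes were -0.0026 (SE 0.15, adjusted p = 0.997) and 0.03 (SE 0.15, adjusted p = 0.938). The sum of all kept cells gave -0.03 (SE 0.13, adjusted p = 0.974) and 0.02 (SE 0.13, adjusted p = 0.958), so a change of this gene in the kidney as a whole was not detected at the depth where it was measured best.

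In stromal cells Vegfa was 29.3, 29.7 and 23.0 CPM in Control mice, 16.6, 24.6 and 23.4 CPM in AKI-CKD mice and 49.2, 36.8 and 53.6 CPM in EGT mice, from 5 to 32 UMIs in a mouse. The EGT mice lay above both other groups. AKI-CKD and EGT mice failed to overlap, in either direction, for 18.3% of stromal genes with at least 50 UMIs. The log2 fold change of 1.03 (SE 0.37, adjusted p = 0.247) against AKI-CKD was not called in edgeR. B cells of the same libraries read 8.45, 8.54 and 16.3 CPM in AKI-CKD mice and 17.0, 42.3 and 37.5 CPM in EGT mice, with all 3 EGT mice higher as well, and thin limb markers in the stromal sums were 655 to 968 CPM in AKI-CKD and 278 to 627 CPM in EGT mice. The part of free RNA or mixed cells in the stromal values was not tested. In thin limb cells Vegfa did not pass the filter. It had 0, 1 and 1 UMIs in the AKI-CKD mice, 8, 20 and 15 in Control mice and 5, 15 and 14 in EGT mice. The Control values were 44.4, 49.0 and 49.3 CPM and the EGT values 39.3, 29.5 and 52.4 CPM. The mouse without a UMI had 63416 UMIs in these cells, which allows up to 58.2 CPM by an exact 95% Poisson interval. The other AKI-CKD mice read 9.67 CPM (exact 95% Poisson interval 0.245 to 53.9) and 12.4 CPM (0.313 to 69.0). Summed over the 3 mice the level was 8.08 CPM (0.978 to 29.2) in AKI-CKD and 48.2 CPM (34.9 to 64.9) in Control mice. These intervals cover counting error only, not the spread between mice, and the difference was not tested. AKI-CKD mice did not overlap with Control mice, as for 16.7% of thin limb genes with at least 50 UMIs. Nor did they overlap with EGT mice, as for 15.1%, both shares counting either direction.

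Angpt1 gave the lowest adjusted p of the 106 tests, in LOH cells. It read 6.72, 7.17 and 5.35 CPM in Control mice, 3.25, 1.97 and 4.52 CPM in AKI-CKD mice and 11.6, 8.09 and 18.7 CPM in EGT mice. The 3 AKI-CKD mice lay below and the 3 EGT mice above the Control mice. The edgeR log2 fold change of the EGT comparison was 2.01 (SE 0.47, adjusted p = 0.0821), short of the threshold. Without a filter on low counts it was 1.99 and was called (adjusted p = 0.00527, edgeR). The log2 fold change of the cisplatin comparison was -0.99 (SE 0.52, adjusted p = 0.542). Groups did not overlap for 17.1% of LOH genes with at least 50 UMIs in the former comparison and for 14.7% in the latter.

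The LOH level was low, resting on 3, 3 and 6 UMIs in the AKI-CKD mice and 10, 11 and 52 in the EGT mice. B cells read 8.45, 0 and 0 CPM in AKI-CKD mice and 17.0, 9.61 and 31.3 CPM in EGT mice, from 10 UMIs or fewer in a mouse. In all 3 EGT mice this was above the LOH value of the same mouse, whereas the 0 UMIs of AKI-CKD replicates 2 and 3 allow up to 8.54 and 16.3 CPM and give no order. After thinning 0.622% ± 0.566 of LOH cells held an Angpt1 UMI, a mean share below that of B cells and above those of T cells and macrophages, and the part of free RNA in the LOH values was not tested. Stromal markers in the same LOH sums ranged from 5.35 to 13.4 CPM in Control, from 1.08 to 5.91 CPM in AKI-CKD and from 15.02 to 32.4 CPM in EGT mice, so they moved with Angpt1. Endothelial markers there were 90.2 to 159.5 CPM in Control and higher in AKI-CKD mice, at 159.8 to 217 CPM. The part of either list was not tested. In principal cells, where the gene was highest, Angpt1 was 35.7, 25.7 and 39.0 CPM in Control mice, 27.8, 33.2 and 30.5 CPM in AKI-CKD mice and 48.9, 44.5 and 46.2 CPM in EGT mice. The EGT mice lay above all others. AKI-CKD and EGT mice failed to overlap, in either direction, for 18.6% of principal cell genes with at least 50 UMIs. The B cell values given above were also higher in EGT mice, and the part of free RNA in the principal cell values was not tested. The edgeR log2 fold changes were -0.05 (SE 0.25, adjusted p = 0.944) for the cisplatin comparison and 0.56 (SE 0.24, adjusted p = 0.301) for the EGT comparison.

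Angpt2 in thin limb cells read 433, 419 and 332 CPM in Control mice, 315, 851 and 186 CPM in AKI-CKD mice and 197, 378 and 195 CPM in EGT mice. One AKI-CKD mouse, replicate 2, was above every other mouse and another below, and the groups overlapped. The edgeR log2 fold changes were 0.23 (SE 0.42, adjusted p = 0.882) and -0.77 (SE 0.43, adjusted p = 0.545). Without that mouse they were -0.65 (adjusted p = 0.603) and 0.11 (adjusted p = 0.964), so both directions turned on it.

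The number of thin limb cells was 37, 99 and 68 in Control, then 17, 29 and 24 for AKI-CKD and 29, 141 and 63 for EGT mice, or 0.266% ± 0.1002, 0.109% ± 0.0388 and 0.394% ± 0.241 of kept cells (SD, n = 3). AKI-CKD shares lay below those of both other groups (exact two-sided permutation test, p = 0.1 for each, the smallest that 3 against 3 mice allow). In PT cells Angpt2 was 0.519, 0.310 and 0.308 CPM in Control mice, 0.0943, 0.193 and 0.0127 CPM in AKI-CKD mice and 0.290, 0.571 and 0.732 CPM in EGT mice, from 1 to 32 UMIs in a mouse. AKI-CKD mice did not overlap with Control mice, as for 19.1% of PT genes with at least 50 UMIs, nor with EGT mice, as for 24.8%. The level was lowest in the group with the fewest thin limb cells, while thin limb markers in the same PT sums overlapped between groups, at 23.4 to 30.7 CPM in Control, 17.7 to 29.0 CPM in AKI-CKD and 24.1 to 39.2 CPM in EGT mice. Stromal markers there were 4.66 to 7.31 CPM in Control, 2.595 to 6.16 CPM in AKI-CKD and 6.22 to 22.4 CPM in EGT mice, lowest in AKI-CKD and without overlap between AKI-CKD and EGT. The part of free RNA from thin limb or stromal cells was not tested. The edgeR log2 fold changes in PT cells were -1.90 (SE 0.64, adjusted p = 0.379) and 2.24 (SE 0.64, adjusted p = 0.235). They were -2.70 and 3.03 without AKI-CKD replicate 2, and -1.35 and 1.68 without AKI-CKD replicate 3.

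In endothelial cells Angpt2 did not pass the filter, at 9.10, 9.83 and 15.8 CPM in Control mice, 2.31, 5.45 and 4.03 CPM in AKI-CKD mice and 1.27, 40.8 and 3.17 CPM in EGT mice. One EGT mouse, replicate 2, held 50 of the 97 UMIs. Thin limb markers summed to 1303 CPM in the endothelial cells of that mouse and to 28.9 to 343 CPM in the other 8 mice, and their part in its Angpt2 value was not tested. The remaining mice all had between 1.27 and 15.8 CPM.

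**Figure D4:**
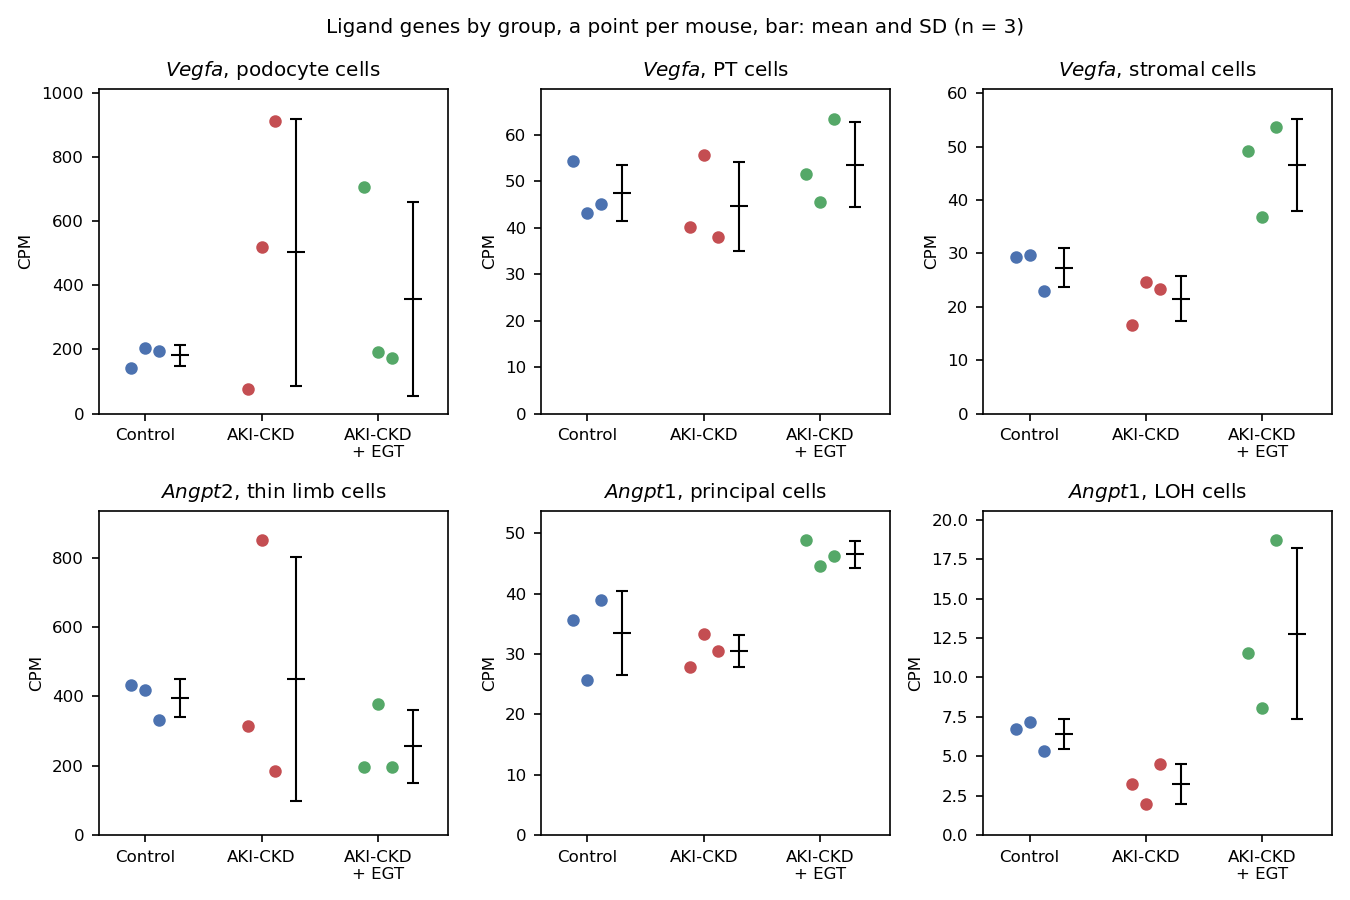
CPM of the ligand genes in named cell types (vertical axes, starting at 0) by group, with a point per mouse and the mean ± SD of 3 mice beside them. Vegfa in podocytes spreads from 76.8 to 911 CPM, and the 3 EGT mice are above the 3 AKI-CKD mice for Vegfa in stromal cells and for Angpt1 in principal and LOH cells, none of which was called in edgeR with the filter on low counts.

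The share of endothelial cells among kept cells was 1.18% ± 0.0346 in Control mice, 1.30% ± 0.603 in AKI-CKD mice and 1.73% ± 0.201 in EGT mice (SD, n = 3). It ranged from 0.846% to 1.98% within AKI-CKD, which covered all Control mice (exact permutation test, p = 1, and p = 0.4 for the EGT comparison). Podocytes made up 0.0854%, 0.0581% and 0.241% of kept cells in the same order, with every EGT mouse above every AKI-CKD mouse (exact permutation test, p = 0.1, the smallest possible). Stromal shares overlapped (p = 0.6 and p = 0.4, exact permutation test). As a share of the kept cells not named PT, the EGT difference turned from 0.432 to -0.320 percentage points for endothelial cells and from 0.175 to -0.0529 for stromal cells. That base holds the 39284 unnamed cells, and the largest unnamed cluster, of 23542 cells, was closest to PT by its markers. In the sum of all kept cells Kdr read 5.12, 5.28 and 3.80 CPM in Control mice, 4.21, 12.7 and 3.90 CPM in AKI-CKD mice and 8.79, 6.91 and 7.41 CPM in EGT mice. The mouse with the largest endothelial share, AKI-CKD replicate 2, also had the highest Kdr, so in such sums fewer endothelial cells and less RNA per cell cannot be told apart.

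The 30 related genes in 4 lists gave 161 further tests in each comparison. None was called in either, with 18 (11.2%) and 20 (12.4%) at an unadjusted p under 0.05 in edgeR, beside the 9.5% and 12.8% of all tests given above. In endothelial cells the VEGF family had 4 of 6 genes tested in the cisplatin comparison, 3 higher and 1 lower, with a median log2 fold change of 0.09. The list of endothelial effectors and responses had 10 of 12 tested, 6 higher and 4 lower, at a median of 0.06, from -0.87 for Esm1 to 0.79 for Akt1. Oxygen sensing had 6 of 7, 4 higher and 2 lower, at 0.24, and the angiopoietin-Tie axis 1 of 5, at 0.10, while the median of all genes was -0.01. An unadjusted p under 0.05 in edgeR was found for 1 VEGF family gene, 3 effector genes, 2 oxygen sensing genes and 0 of the Tie axis. Of all endothelial tests in this comparison 9.3% had one. For the EGT comparison the medians of the lists in the same order were 0.28, -0.05, 0.06 and -0.17, and that of all genes 0.02. There 2 effector genes and 0 of the other lists had an unadjusted p under 0.05 in edgeR, beside 9.57% of all endothelial tests.

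Their levels extended the picture of the vessels, and the order of the cell types was not tested for them. Among the VEGF family, Vegfc, the ligand of the lymphatic receptor Flt4, was highest in endothelial cells at 61.1 ± 25.3 CPM (SD, n = 9), as was Flt4 itself at 44.9 ± 9.53 CPM. Vegfb peaked in intercalated cells at 169.9 ± 40.1 CPM, Vegfd in DCT cells at 34.6 ± 8.92 CPM and Pgf, a ligand of Flt1, in stromal cells at 22.8 ± 13.2 CPM. Of the angiopoietin-Tie axis, Ptprb, the phosphatase that switches TIE2 off, was highest in endothelial cells at 771 ± 81.4 CPM. Angptl2 peaked in podocytes at 279 ± 212 CPM and Angpt4, a further TIE2 ligand, in stromal cells at 18.9 ± 9.95 CPM.

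Of the oxygen sensing genes, which set the level of Vegfa in low oxygen, Epas1 was highest in endothelial cells at 1278 ± 218 CPM and Hif1a in principal cells at 125 ± 19.7 CPM. Egln1, a prolyl hydroxylase that marks these factors for breakdown, read 52.8 ± 6.60 CPM in DCT and 52.2 ± 20.6 CPM in cycling cells, and Egln2 66.1 ± 26.9 CPM in cycling and 62.6 ± 14.3 CPM in intercalated cells. Arnt, the partner of both factors, read 30.6 ± 26.9 CPM in podocytes, and Vhl 14.99 ± 7.62 CPM in thin limb cells. Egln3 read 11.8 ± 9.80 CPM in thin limb and 9.66 ± 6.02 CPM in endothelial cells. Of the 12 endothelial effectors and responses, 9 were highest in endothelial cells. Esm1, a gene induced by VEGF, read 175 ± 88.2 CPM and Nos3, the endothelial nitric oxide synthase, 154 ± 34.2 CPM there, and the other 7 ranged from 7.59 ± 5.34 CPM for Aplnr to 126 ± 23.5 CPM for Dll4. The remaining 3 were highest elsewhere. Shb peaked in principal cells at 108 ± 46.9 CPM, and Nrarp in stromal cells at 24.8 ± 15.4 CPM. Apln was low, at 5.59 ± 7.53 CPM in thin limb and 4.10 ± 5.49 CPM in cycling cells, and Svep1 of the Tie list read 19.96 ± 23.6 CPM in podocytes and 11.3 ± 9.93 CPM in stromal cells.

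The genes most alike were found by Pearson r of log2(CPM + 1) over 117 sums per mouse and cell type, among 10224 genes with at least 20 CPM in a type. These points share libraries, and the genes also shaped the clusters, so r is a description only. Of the genes named here Eng, Cd300lg, Sox17 and Corin were themselves markers used to name endothelial, peritubular, arterial and thin limb cells. Tie1 was most like Hspa12b (0.93), Sox17 (0.92) and Fam110d (0.91). Flt1 was most like Adgrl4 (0.89), Ptprb (0.88) and Eng (0.87), Kdr like Meox1 (0.86), Cd300lg (0.86) and Rasip1 (0.86), Tek like Fam110d (0.88), Dhh (0.87) and Zfp366 (0.86) and Nrp1 like Ptprb (0.81), Tmem204 (0.81) and Eng (0.80). Angpt2 was most like Corin (0.89), Akap12 (0.83) and Cfap52 (0.82). Vegfa and Angpt1 had weaker matches, Vegfa with Sil1 (0.77), Dach1 (0.75) and Hs3st6 (0.73) and Angpt1 with Carmil1 (0.61), Snx24 (0.60) and Bbs9 (0.60).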

How the data were processed

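Single-cell RNA libraries of 9 mouse kidneys were analysed. For each, the authors deposited raw UMI counts as a sparse matrix, made with PISA v1.0 per the file headers and on GRCm39 per the submitters' processing notes. The aligner, annotation and strand of counting are not given in the sources used here. Groups and replicate numbers came from the labels. The genes described and the lists beside them were chosen with earlier results of these data known.

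Kept cells had 1000 UMIs or more, 500 genes or more and no more than 15% of UMIs from mitochondrial genes. With scanpy 1.11.5 and numpy 2.4.6, 2000 variable genes (without mitochondrial, ribosomal, VEGF, angiopoietin and related pathway genes), 30 principal components, Harmony by library, 20 neighbours and Leiden clustering at resolution 1.1 gave 27 clusters. Cells outside PT were clustered again, then endothelial cells alone (20 components, resolution 0.8). A cluster was named when it held at least 50 cells and at least 3 markers of a list were 2-fold above other types. Clusters short of these rules, haemoglobin-led clusters, mixed clusters and cells whose names differed between the 2 rounds stayed unnamed (39284 cells). The largest unnamed cluster, of 23542 cells, was closest to PT but raised only 2 of its 12 markers. These naming rules were set after the clusters were seen. Scrublet scores found no workable doublet threshold, so no doublets were removed in the main results. With the same stated cutoffs and the same number of cells at the start, the study kept fewer cells than were kept here. The reason was not tested. The populations are rebuilt and may differ from those of the study.

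Counts were summed per mouse and type. CPM used total UMIs. Between types, mice with at least 10 cells were compared by exact two-sided permutation within mice on log2(CPM + 1). Groups were compared with edgeR 4.0.16 (filterByExpr, TMM, quasi-likelihood F test, 9 mice in one fit) in R 4.3.3, with Benjamini-Hochberg adjustment across every gene tested in that population and a threshold of 0.05. Means ± SD of CPM between groups use total UMIs, and log2 fold changes TMM sizes. DESeq2 1.42.0 and other settings were alternatives. The scripts were checked on simulated counts. Nothing says whether mice of a group shared a cage or day, so p-values measure the spread between these mice, and limits for 0 counts and ranges of UMIs cover counting error only. Genes were named by role and by the lists: all 8 genes, and of each pathway list, for every cell type in which any of its genes is highest, the 2 highest there. Dll4 and Aplnr were named after their values were seen. For each gene the 3 most alike by r were given.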

Additional observations from a re-analysis of the deposited data

How the results depend on the processing

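Of the 26 counts of called genes, 23 stayed at 0 under all alternatives run. In the EGT comparison 1 gene was called without a filter on low counts in endothelial cells (Angpt2, adjusted p = 0.0459, over alternatives 0.0459 to 0.826) and in LOH cells (Angpt1, adjusted p = 0.00527, over alternatives 0.00527 to 0.550), and 1 in PT cells with DESeq2 (Angpt2, adjusted p = 0.0425, over alternatives 0.0425 to 0.641). Of the 55 endothelial Angpt2 UMIs in the EGT mice, 50 were in replicate 2. The causes were not tested. Same-numbered mice did not deviate together (r from -0.45 to 0.37), but this cannot show whether they shared a day or cage. With a replicate block 0 of these genes were called in all 13 populations tested, as without it. The block lowered the calls among all genes from 123 to 33 in intercalated cells and from 18 to 0 in LOH cells, and raised those in thin limb cells from 1 to 2.

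Of 36 log2 fold changes refitted under the alternatives (those of the genes and cell types described), the following changed sign. With 1 mouse left out, Kdr in endothelial cells ranged from -0.41 to 0.14 (EGT comparison), Nrp1 from -0.045 to 0.21 (cisplatin comparison) and Tek from -0.16 to 0.18 (cisplatin) and -0.032 to 0.31 (EGT). Vegfa in podocytes ranged from -1.34 to 0.33 (EGT), and Angpt2 in thin limb cells from -0.65 to 0.57 (cisplatin) and -1.17 to 0.11 (EGT). Angpt1 in principal cells ranged from -0.17 to 0.065 (cisplatin) and Vegfa in PT cells from -0.17 to 0.088 (cisplatin) and -0.059 to 0.20 (EGT), and in all kept cells from -0.11 to 0.047 and -0.055 to 0.10. In glomerular cells Flt1 ranged from -0.20 to 0.12 (cisplatin) and Kdr from -0.40 to 0.16 (EGT). For the cisplatin comparison at most 10% mitochondrial UMIs gave -0.047 for Tek and 0.055 for Angpt1 in principal cells, and leaving out the 6% highest doublet scores gave -0.094 for Tek, 0.0033 for Angpt1 in principal cells and 0.0019 for Vegfa in PT cells. No filter on low counts gave 0.0083 and, for the EGT comparison, -0.0018 for Vegfa in PT cells, and 0.14 and -0.068 for Flt1 in glomerular cells. None of these was called.

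Levels moved by over 1 SD as follows. The mean of each cell's CPM gave 507 for Kdr and 1089.9 for Flt1 in endothelial cells. Leaving these genes in the variable genes gave 733 CPM for Flt1 and 254 CPM for Tie1 in endothelial cells, and 1559 and 380.2 CPM in peritubular cells. Cell names of the first clustering, chosen as an alternative after seeing the data, gave 724 CPM for Flt1, 111 CPM for Tek and 250.4 CPM for Tie1. Without the arterial cluster of 380 cells, an alternative likewise chosen after seeing the data, Nrp1 in arterial and descending vasa recta cells was 218 CPM. With the cluster of 227 cells of this subset alone, also added after seeing the data, Kdr was 93.7 CPM and Flt1 754 CPM. Without thinning, the share of cells with a UMI was 11.5% for Angpt1 in principal cells, 46.5% for Angpt2 in thin limb cells, and in endothelial cells 44.4% for Kdr, 79.2% for Flt1, 62.2% for Nrp1, 31.2% for Tek and 54.9% for Tie1.

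Differences in cell shares, in percentage points, moved with the denominator, and those of endothelial and stromal cells in the EGT comparison turned negative. As a share of kept cells not named PT, which include the unnamed cells, the endothelial difference was 0.841 (cisplatin) and -0.320 (EGT). On that base the podocyte difference was -0.0707 and 0.335, and the stromal difference -0.0529 (EGT). With the names of the first clustering the podocyte difference was -0.0888 and 0.516 and the stromal difference -0.215 and 0.386. Among the cells tested between groups, depth was lowest in podocytes, glomerular endothelial cells and thin limb cells, where a mouse had as few as 30576, 39989 and 63416 UMIs.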
